A study of Mus musculus with 7 samples.

Results

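The transcripts of 7 genes for secreted and membrane proteins were followed in prostate RNA of mice with and without an active Notch1 fragment. They are Pnliprp2, Nxpe4 and Wfdc3, whose products are secreted or predicted to be, and Kcnf1, Emb, Tspan7 and Aqp5, whose products sit in the cell membrane. The 7 genes were picked because their signal on the PB-NICD arrays was far above that on the control arrays and because they belong to no larger gene family described in these samples, so that difference is given as a description, with no test. All non-control probes whose transcript accession maps to one of them were taken, which gave 8 of the 41174 probes on the array, 2 for Emb and 1 for each of the others. All 7 genes passed the filter on dim probes. They are 7 of 17016 genes that the array's probes could be matched to, and 16956 genes and unnamed transcripts passed the filter in all.

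Per the labels, the 7 samples were prostate RNA from mice of the C57Bl/6 background. The 4 controls were ROSA(N1IC) mice, which carry the Notch1 intracellular domain at the ROSA locus and are labelled NICD wild-type. The 3 PB-NICD samples came from ARR2PB-Cre;ROSA(N1IC) mice, in which Cre made from the probasin-derived ARR2PB promoter turns that allele on in the prostate and lesions called prostatic intraepithelial neoplasia form. The ROSA(N1IC) allele is thus shared by both groups, and the Cre transgene marks the PB-NICD group alone. Ages, prostate lobes and the number of mice behind a sample are not given in the sources used here. Where samples are not separate mice, the spread between them and the p-values that rest on it measure technical variation. Each sample, labelled in red, was hybridised with a universal mouse reference RNA in green on its own 2-colour array, so a level here is the log2 ratio of prostate over reference, and a change is how far the mean of the PB-NICD arrays lies from that of the controls, positive where PB-NICD is higher. Arrays of control 1, control 2 and PB-NICD 1 lay on slide 1, and those of control 3, control 4, PB-NICD 2 and PB-NICD 3 on slide 2.

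The Notch receptor is a membrane protein that, once bound by a ligand on a neighbouring cell, is cut so that its intracellular domain moves to the nucleus and joins the DNA-binding protein RBPJ. The complex turns on genes such as the Hes and Hey repressors and Nrarp. In glands, Notch signalling bears on which cells become secretory, and the prostate epithelium is itself a secretory tissue that makes the proteins and fluid of the ejaculate. The ARR2PB promoter responds to androgen and is active in the prostate epithelium, so stroma is not its target.

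The labels were checked first. Heyl, a direct Notch target, had log2 ratios of -0.23, -0.14, -0.22 and -0.03 in the 4 controls and of 2.75, 2.79 and 2.60 in the 3 PB-NICD samples. Notch1 itself read 0.05 to 0.84 in the controls and 2.64 and 2.74 in PB-NICD 2 and 3, and its spot on PB-NICD 1, marked as an outlier, read 2.48 where kept. All 3 libraries labelled PB-NICD therefore stood above every control for both genes. Hey1, another Notch target, did not separate the groups in full: it read 1.32, 1.77, 2.28 and 1.62 in the controls and 3.93, 2.28 and 4.30 in the PB-NICD samples, with PB-NICD 2 just below control 3. The tissue label was checked with Pbsn, the androgen-driven secretory protein probasin, which lay between 9.81 and 11.71 on the log2 ratio scale on all 7 arrays. The red channel was dim, with a median spot signal of 69 to 107 over a median background of 53 to 55, and 44.9% to 66.8% of probes were well above background there.

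None of the 7 genes overlapped between the groups: in every case the lowest PB-NICD array was above the highest control array. Over all items, 10.4% had every PB-NICD array above every control and 15.2% every one below, and since the genes were chosen on this contrast nothing is read from their count. By the fitted size of the rise the genes held ranks between 1 (Pnliprp2) and 33 (Aqp5) of 16956, a description that for the dimmest spots rests on values near background. RNA came from whole tissue, so more cells of a type and more RNA per cell cannot be told apart.

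**Figure D1:**
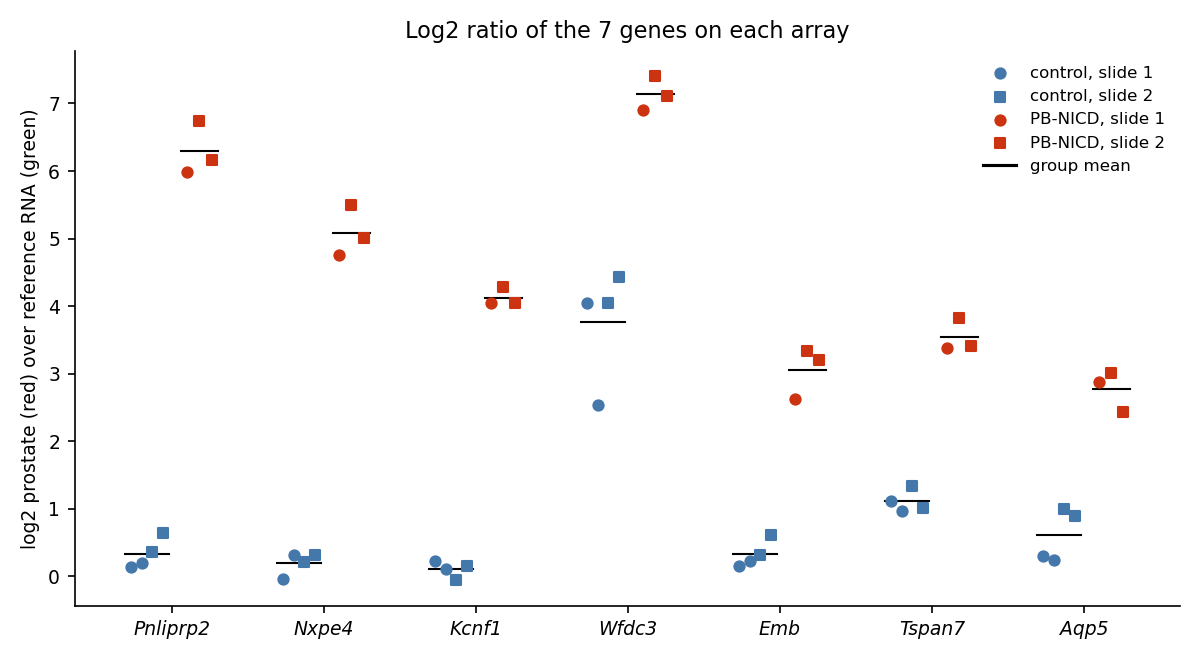
Log2 ratio of prostate over reference RNA (vertical axis) for the 7 genes, with 1 point per array, blue for the 4 controls and red for the 3 PB-NICD samples, circles for slide 1 and squares for slide 2, and bars at group means. Every PB-NICD point lies above every control point of its gene, and the control 2 value of Wfdc3 (2.54) lies below the other controls of that gene.

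The secreted proteins are described first. Pnliprp2 encodes pancreatic lipase-related protein 2, a secreted enzyme that breaks down galactolipids, phospholipids and triglycerides. Its log2 ratio was 0.14, 0.19, 0.35 and 0.65 in controls 1 to 4 and 5.98, 6.73 and 6.16 in PB-NICD 1 to 3. The control log2 ratios lay near 0, towards which the offset added in background correction draws dim spots. The PB-NICD samples were all high, with a gap of 5.33 between the highest control and the lowest PB-NICD array. The means were 0.33 ± 0.23 (SD, n = 4) and 6.29 ± 0.40 (SD, n = 3), a rise of 5.96 ± 0.19 (SE), or 62.1-fold. In scanner units, red minus background was 12, 11, 27.5 and 27 in the controls and 1796.5, 3667 and 2931.5 in the PB-NICD samples. On 3 of the 4 control arrays the spot was still well above background, so the control level was measured, though barely, and control 2 was the exception. The green spot, which holds the reference, was not well above background on PB-NICD 1 and 2, so the ratio there rests on dim values, and in the red channel alone, after loess and Aquantile scaling, the difference was 40.8-fold. Within slide 1 the rise was 5.81 and within slide 2 it was 5.95. The 250 bases before its start, chr19:58759473-58759722 on the plus strand of RefSeq's GRCm38.p6, are shown because this gene had the largest fitted rise of the 7; in them and in the other sequences below, capitals mark any copy of the hexamers TGGGAA, the core bound by RBPJ, and TGTTCT, an androgen receptor half-site, or of their reverse complements TTCCCA and AGAACA.
Pnliprp2: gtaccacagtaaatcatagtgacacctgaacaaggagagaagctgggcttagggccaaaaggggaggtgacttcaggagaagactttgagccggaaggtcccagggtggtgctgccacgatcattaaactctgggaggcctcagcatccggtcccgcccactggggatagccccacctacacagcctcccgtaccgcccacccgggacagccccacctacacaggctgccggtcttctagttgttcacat
This stretch holds neither hexamer and is all in lower case.

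Nxpe4 encodes a predicted secreted protein of the neurexophilin and PC-esterase domain family. The log2 ratio of its probe was -0.04, 0.32, 0.21 and 0.32 in the controls and 4.75, 5.49 and 5.01 in the PB-NICD samples. All controls were near 0 and all PB-NICD samples far above them. The means were 0.20 ± 0.17 (SD, n = 4) and 5.08 ± 0.38 (SD, n = 3), and the rise was 4.88 ± 0.17 (SE), or 29.5-fold. Red minus background was 4, 13.5, 14 and 18 in the controls and 727, 1659.5 and 1158.5 in the PB-NICD samples. The spot was well above background on 2 of the 4 control arrays, those of slide 2. The green spot was not well above background on PB-NICD 1 and 2, with a mean of 117 in the controls and 152 in the PB-NICD samples before background was removed. The ratio is thus tied to dim values in both channels, and in the red channel alone the difference was 21.4-fold. Its promoter is shown because a tandem of the androgen receptor half-site stands just before the start, at chr9:48361791-48362040 on the plus strand of GRCm38.p6.
Nxpe4: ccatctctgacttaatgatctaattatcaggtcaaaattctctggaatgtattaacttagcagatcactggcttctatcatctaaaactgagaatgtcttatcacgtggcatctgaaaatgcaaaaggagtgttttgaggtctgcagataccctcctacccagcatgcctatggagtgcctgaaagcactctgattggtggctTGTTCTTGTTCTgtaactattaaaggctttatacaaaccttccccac
The 2 copies begin at positions -47 and -41 and directly follow each other.

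Wfdc3 encodes a small protein with whey acidic protein domains, a fold found in secreted protease inhibitors. Its probe was well above background on every array of both groups. The probe read log2 ratios of 4.05, 2.54, 4.05 and 4.43 in the controls and 6.90, 7.41 and 7.11 in the PB-NICD samples. Control 2 was the low one, and the other 3 controls lay within 0.4 of each other. The means were 3.77 ± 0.84 (SD, n = 4) and 7.14 ± 0.25 (SD, n = 3), so the rise of 3.38 ± 0.37 (SE), or 10.4-fold, carries the largest error of the 7. Red minus background was 333, 119, 510.5 and 655.5 in the controls and 4516, 11129 and 10887 in the PB-NICD samples. Control 2 is also the array on which seminal vesicle markers were bright, with a summed red signal over 9 genes of 27498 against 89.5 to 539 on the other controls. The part of this in its low Wfdc3 value was not tested, and without control 2 the rise was 2.97. Its promoter, chr2:164743268-164743517 on the minus strand of GRCm38.p6, is shown because it alone among the 7 holds the RBPJ core.
Wfdc3: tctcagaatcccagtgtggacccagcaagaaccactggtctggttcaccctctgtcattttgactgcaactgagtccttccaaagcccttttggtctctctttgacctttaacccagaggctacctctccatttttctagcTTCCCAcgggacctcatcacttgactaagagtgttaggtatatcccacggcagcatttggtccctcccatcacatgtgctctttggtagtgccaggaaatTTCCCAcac
The core appears 2 times, both as TTCCCA, at positions -109 and -9 counted from the start.

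Of the membrane proteins, Kcnf1 encodes a potassium channel subunit that forms no working channel alone and acts by joining other subunits. On the log2 ratio scale it read 0.23, 0.11, -0.06 and 0.15 in the controls and 4.04, 4.28 and 4.05 in the PB-NICD samples. The PB-NICD samples lay closer together than for any of the other genes, with means of 0.11 ± 0.12 (SD, n = 4) and 4.13 ± 0.14 (SD, n = 3). Red minus background was 9.5, 6, 5 and 11 in the controls and 464, 691.5 and 610.5 in the PB-NICD samples. The probe was not well above background on any of the 4 control arrays and was so on all 3 PB-NICD arrays, so the control level is only a bound. In the red channel after loess and Aquantile scaling PB-NICD was at least 13.7-fold higher, a value open to dye bias. There the dim group is set per array at the higher of the lowest signal well above background and the probe's own. The probe's own signal was the higher, so the plain ratio is the same 13.7-fold and the bound holds for this scaling only. The difference of mean log2 ratios was 4.02 ± 0.12 (SE), and 2.29 with median centring in place of loess. The green signal of this spot was also dim, at a mean of 90.0 in the controls and 154 in the PB-NICD samples before background was removed, and was well above background on control 4 and PB-NICD 3 alone.

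Emb encodes embigin, a membrane glycoprotein of the immunoglobulin superfamily that escorts monocarboxylate transporters to the cell surface. On the brighter of its 2 probes, the log2 ratio was 0.15, 0.22, 0.32 and 0.61 in the controls and 2.63, 3.34 and 3.20 in the PB-NICD samples. On the other probe it was 0.36, 0.33, 0.32 and 0.35 in the controls and 3.32, 3.17 and 2.79 in the PB-NICD samples. Both probes put every PB-NICD sample above every control, but they order the PB-NICD samples differently: PB-NICD 1 was the lowest on the first and the highest on the second. The rises were 2.73 ± 0.18 (SE), or 6.65-fold, and 2.75 ± 0.13 (SE), or 6.74-fold. Red minus background on the brighter probe was 35 to 115 in the controls and 623 to 1242.5 in the PB-NICD samples.

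Tspan7 encodes a tetraspanin, a protein that crosses the membrane 4 times and gathers other membrane proteins into patches. The log2 ratio of Tspan7 was 1.12, 0.97, 1.34 and 1.02 in the controls and 3.38, 3.82 and 3.41 in the PB-NICD samples. The controls already stood above the reference and the groups lay 2.04 apart at their nearest. The means were 1.11 ± 0.16 (SD, n = 4) and 3.54 ± 0.24 (SD, n = 3), and the rise was 2.43 ± 0.14 (SE), or 5.38-fold. Red minus background was 112.5, 107.5, 255.5 and 193 in the controls and 1094, 2634.5 and 2039.5 in the PB-NICD samples.

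Aqp5 encodes a water channel of the apical membrane, known from salivary, lacrimal and sweat glands and from the lung. Its log2 ratio was 0.30, 0.25, 0.99 and 0.89 in the controls and 2.87, 3.00 and 2.43 in the PB-NICD samples. The 2 controls of slide 1 were lower than the 2 of slide 2, with means of 0.28 and 0.94. The only PB-NICD array of slide 1 lay between the 2 of slide 2, and 1 array cannot show whether PB-NICD has such a split. The rise was 2.16 ± 0.21 (SE), or 4.48-fold. Within slide 1 it was 2.59, from 1 PB-NICD array against 2 controls, and within slide 2 it was 1.78, from 2 against 2, the widest gap between the slides among the 7 genes. Red minus background was 31, 29, 84 and 82.5 in the controls and 643, 984.5 and 694 in the PB-NICD samples.

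**Figure D2:**
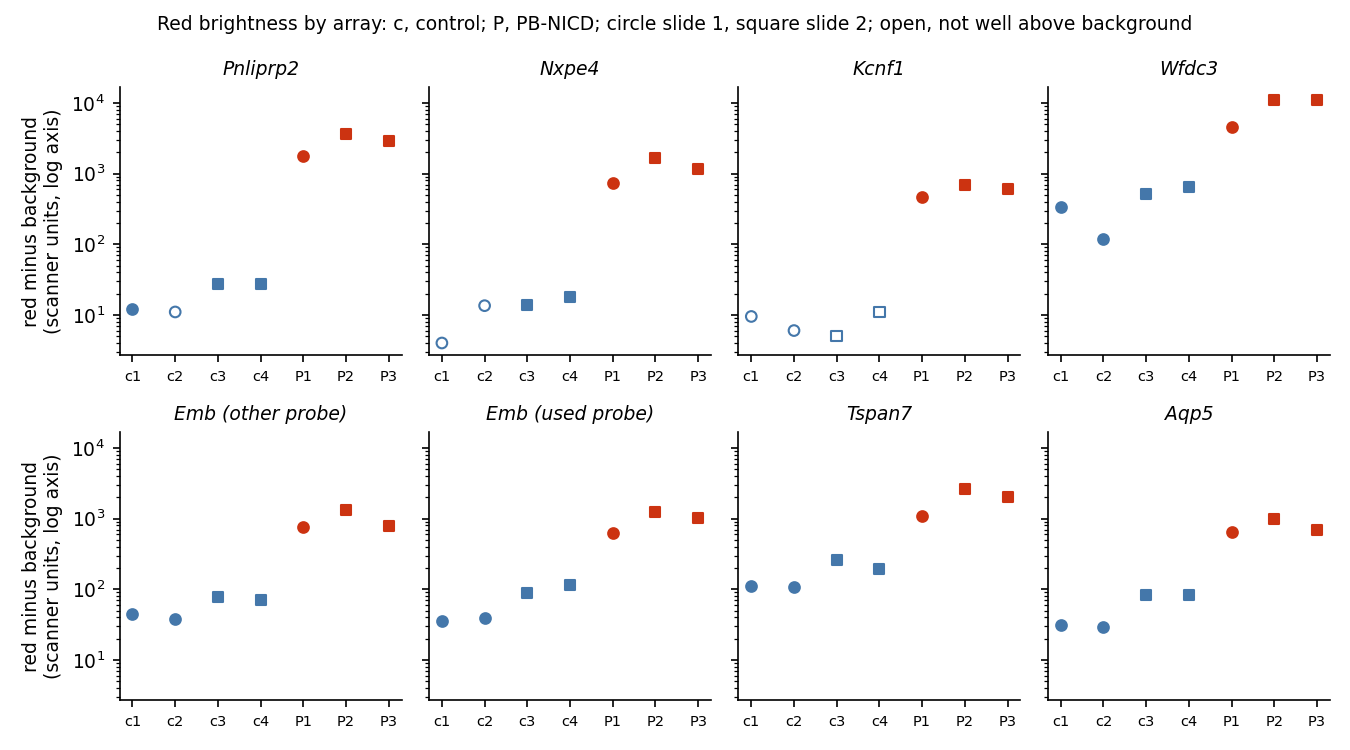
Red signal minus local background (scanner units, log axis) of the 8 probes on each array, c1 to c4 for controls and P1 to P3 for PB-NICD, circles for slide 1 and squares for slide 2. Open points were not well above background: all 4 controls for Kcnf1, 2 for Nxpe4 and 1 for Pnliprp2. Brightness is not scaled between arrays, and probes differ in response, so levels compare across arrays within a panel only.

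The 3 PB-NICD samples were close to each other for all 7 genes. The rise on PB-NICD 1, the only PB-NICD array of slide 1, was set against the mean rise on PB-NICD 2 and 3, each over the mean of the 4 controls. PB-NICD 1 reached 78.3% of it for Emb on the brighter probe and 113% on the other, 89.8% for Wfdc3, 90.1% for Nxpe4, 90.7% for Tspan7, 92.3% for Pnliprp2, 96.9% for Kcnf1 and 107% for Aqp5. Over the 34 items measured on all arrays that PB-NICD 2 and 3 put at least 2 above control, the median was 81.7%, with quartiles of 70.2% and 90.5%. The 34 include the 7 genes and were chosen for high values on PB-NICD 2 and 3, which bears on that median. The red channel was somewhat brighter on the PB-NICD arrays, with a median spot signal of 88 to 107 against 69 to 87.5 on the control arrays. The rise in the red channel alone, after loess and Aquantile scaling, was 5.35 for Pnliprp2, 4.42 for Nxpe4, 3.98 for Wfdc3, 3.77 for Kcnf1, 2.54 for Emb, 2.52 for Tspan7 and 2.56 for Aqp5.

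**Figure D3:**
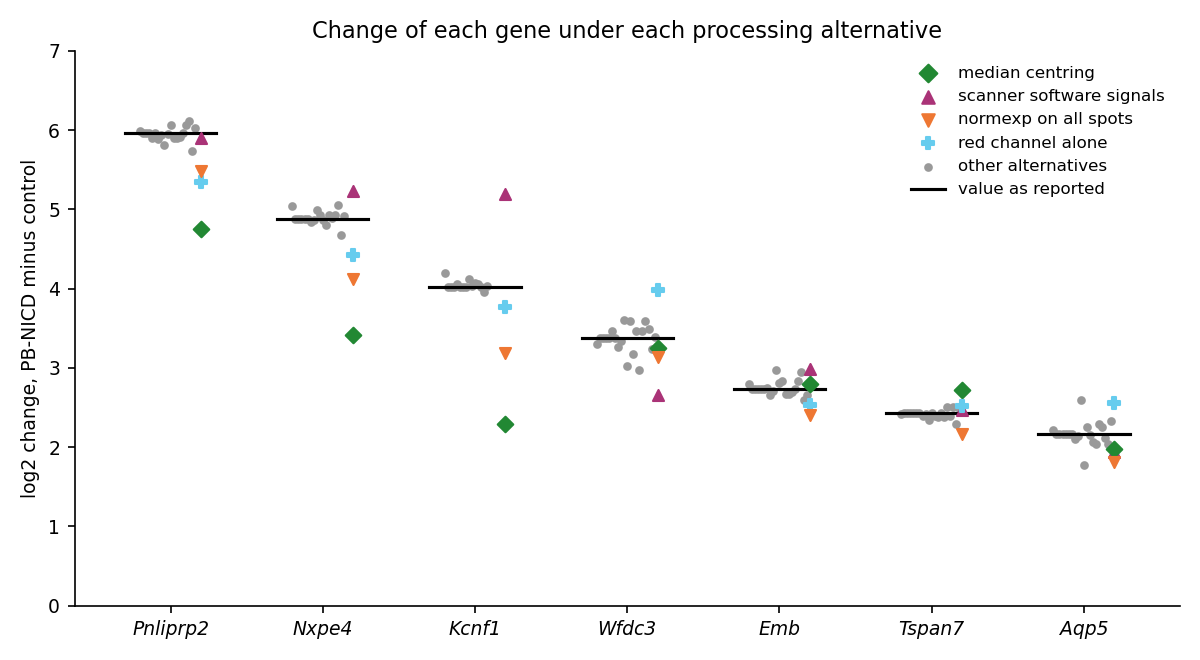
Log2 change, PB-NICD minus control (vertical axis), of each gene as reported (black bar) and under each other way of processing (points). All points lie above 0, and median centring gives the lowest value for Pnliprp2 (4.75), Nxpe4 (3.41) and Kcnf1 (2.29).

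Next, relatives of the 7 genes were examined: lipases and colipase, the Nxpe family, potassium channel subunits, tetraspanins and aquaporins. Also listed were whey acidic protein domain genes with other protease inhibitors, and basigin relatives with monocarboxylate transporters and lactate dehydrogenases. Without the 7 genes the lists held 148 genes, of which 125 had a probe and 76 were tested. By limma's moderated test with Benjamini-Hochberg adjustment over all 16956 items, 8 rose (10.5%) and 7 fell (9.21%) at an adjusted p of at most 0.05, while over all items 1462 were called (8.62%), of which 602 rose (3.55% of all) and 860 fell (5.07% of all). Their median change was -0.06 and that of all items -0.03. Of the 8 that rose, 4 (Nxpe2, Eppin, Kcns3 and Aqp11) were above background on no control array and so passed the filter through the PB-NICD arrays alone, which bears on that share. Each list had at least 1 gene that rose. In the Nxpe, potassium channel, whey acidic protein and aquaporin lists that gene was 1 of these 4, so nothing is read from this spread over the lists.

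Among lipases, Pnliprp1, which encodes another pancreatic lipase-related protein, rose. Its log2 ratio was 6.34, 7.07, 7.61 and 7.56 in the controls and 8.14, 8.73 and 8.17 in the PB-NICD samples. All controls were already far above the reference, and the rise was 1.20 ± 0.28 (SE; limma adjusted p = 0.0274). Without control 2 or any 1 of the PB-NICD samples the adjusted p was 0.0526 to 0.117, with the rise at 1.01 to 1.31. Lipc, hepatic lipase, fell by 0.67 (adjusted p = 0.0169), a call that ended without PB-NICD 1 (adjusted p = 0.0601) or PB-NICD 2 (0.0702). Pnlip, pancreatic lipase itself, was well above background on 0 of the 7 arrays, and Clps, the colipase that helps it bind fat, changed by -0.05 and was not called. The other 6 tested genes of this list were not called either.

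In the Nxpe family only Nxpe2 could be tested, and it rose. The log2 ratio of Nxpe2 was 0.68, 0.19, 0.17 and 0.20 in the controls and 2.46, 2.66 and 3.21 in the PB-NICD samples, so all PB-NICD samples were above all controls, of which control 1 was the high one. The change was 2.47 ± 0.19 (SE; limma adjusted p = 5.02e-05), and as no control array was above background PB-NICD was at least 4.08-fold higher in the red channel. That bound holds for the scaling used only, and with median centring in place of loess the Nxpe2 change was 1.42. Nxpe5 was above background on no array.

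Of the 14 potassium channel subunits tested, 1 rose. Kcns3, like Kcnf1 a subunit that acts by joining others, was near 0 in the 4 controls (-0.06 to 0.03) and at 0.95 and 1.02 in PB-NICD 1 and 3, with no value on PB-NICD 2, and rose by 0.98 ± 0.12 (SE; adjusted p = 0.000921). PB-NICD was at least 1.74-fold higher, but with median centring in place of loess the change was -1e-04.

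Of the 10 genes tested in the list of whey acidic protein domain genes and other protease inhibitors, Eppin, an epididymal protease inhibitor, was the 1 that rose. Its log2 ratio was 0.21, -0.19, 0.00 and -0.33 in the controls and 2.02, 2.48 and 1.82 in the PB-NICD samples. The change was 2.19 ± 0.18 (SE; adjusted p = 6.05e-05), at least 3.40-fold in the red channel. That bound too holds for its scaling only, and with median centring in place of loess the Eppin change was 1.03. Slpi (-0.50) and Wfdc2 (-0.28), secreted inhibitors of the same domain family, were not called.

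Of 13 tested genes in the list of basigin relatives, transporters and lactate dehydrogenases, 1 rose and 3 fell. Slc16a11, a monocarboxylate transporter, lay between -0.46 and -0.07 in the controls and at 1.42, 1.38 and 1.10 in the PB-NICD samples. It rose by 1.56 ± 0.13 (SE; adjusted p = 6.48e-05) and was called under all 24 other ways of processing. Slc16a7, the transporter best known as a partner of embigin, was measured on 2 control arrays, at 3.50 and 3.73, and lay at 2.78, 3.03 and 2.47 in the PB-NICD samples. It fell by 0.86 (adjusted p = 0.0263), a call that ended without PB-NICD 1 (0.0673) or PB-NICD 3 (0.0578). Bsg, basigin, the other main escort of these transporters, changed by 0.10 and was not called. The lactate dehydrogenase genes Ldha and Ldhb, whose enzymes interconvert pyruvate and lactate, fell by 0.74 (adjusted p = 0.0149) and 0.50 (adjusted p = 0.0417). On the other probe of Ldha the change was -1.42. For Ldhb the call ended without any 1 of controls 1, 3 and 4 or without PB-NICD 2 or 3 (adjusted p from 0.0856 to 0.148).

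Tetraspanins split evenly: of 23 tested, 2 rose, 2 fell and 19 were not called. Tspan9 rose by 0.67 ± 0.10 (SE; adjusted p = 0.00209) and Tspan33 by 0.80 (adjusted p = 0.0165; 0.0696 without PB-NICD 1). Tspan13 fell by 1.05 (adjusted p = 0.000655), from 4.20 to 4.66 in the controls to 3.31 to 3.45 in the PB-NICD samples, and Tspan6 fell by 0.75 (adjusted p = 0.00113). Tspan7 thus rose in a list whose median change was -0.11.

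Of 6 aquaporins tested, 1 rose, 1 fell and 4 were not called. Aqp11, an intracellular family member, rose by 1.02 ± 0.21 (SE, limma adjusted p = 0.0119). PB-NICD was at least 1.88-fold higher under the red channel scaling, but with median centring in place of loess the change was 0.50. The Aqp11 values on the PB-NICD arrays were spread, at 0.29, 1.29 and 1.01. Aqp1, the water channel of vessels and red cells, fell by 0.61 (adjusted p = 0.0137; 0.0668 without PB-NICD 2). Aqp2, the kidney collecting duct channel whose gene lies next to Aqp5, changed by -0.10 and was not called. Aqp3 had spots above background on all 7 arrays but too few unmarked ones for the test.

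The slide and the processing bore on these calls unequally. Within slides 1 and 2 the change was 1.44 and 0.87 for Pnliprp1, 1.78 and 1.41 for Slc16a11, -1.13 and -0.96 for Tspan13, -0.73 and -0.77 for Tspan6 and 0.63 and 0.70 for Tspan9. For Nxpe2 and Eppin, which had 1 array above background on slide 1, slide 2 alone gave 2.75 and 2.31. With median centring in place of loess, which moved the median of all items to 0.27, Aqp1, Aqp11, Slc16a7, Ldha, Ldhb, Tspan6, Tspan13 and Kcns3 were no longer called (adjusted p from 0.0633 to 1.00). In the red channel alone the calls of Aqp1, Slc16a7, Ldha and Ldhb ended (0.0721 to 0.218). Where normexp was fitted on all spots, the 10 genes Aqp11, Slc16a7, Ldhb, Nxpe2, Pnliprp1, Lipc, Tspan9, Tspan33, Kcns3 and Eppin were not called (0.051 to 0.316).

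**Figure D4:**
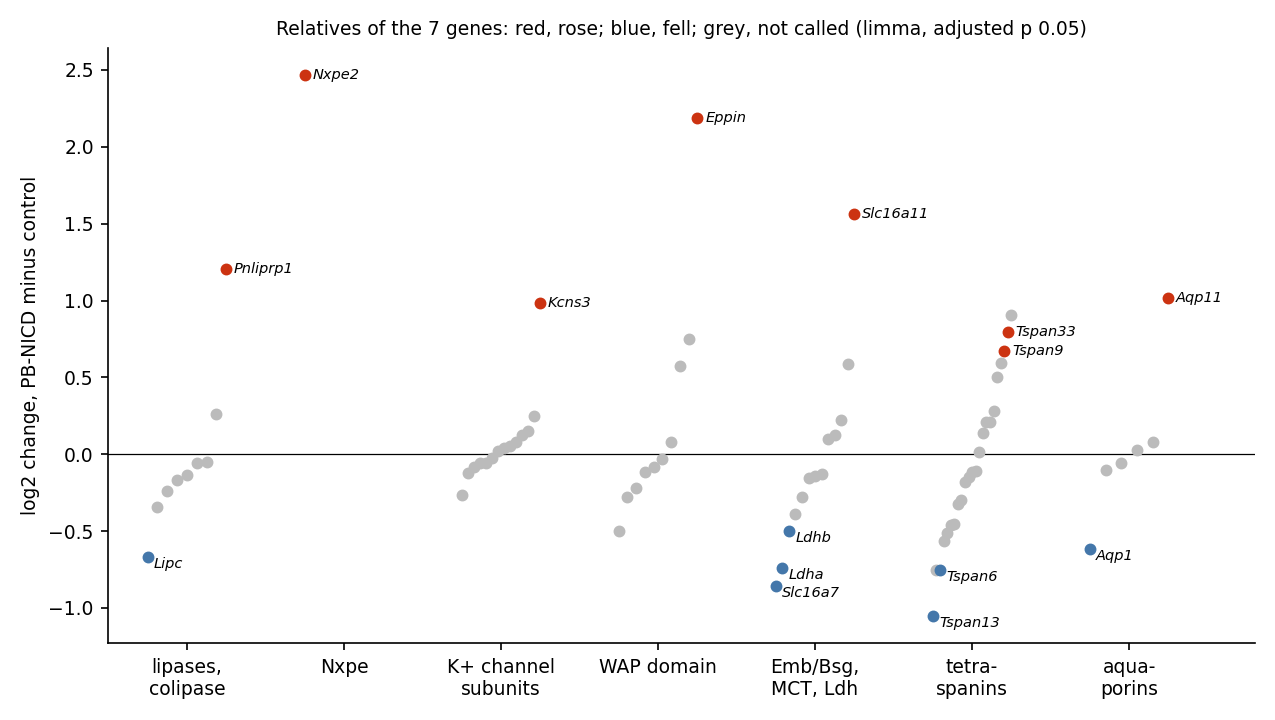
Log2 change, PB-NICD minus control (vertical axis), of each tested relative, in 7 family columns ordered within a column by size, red for the 8 that rose, blue for the 7 that fell and grey for those not called. Nxpe2 (2.47) and Eppin (2.19) stand highest, and the lowest point is Tspan13 (-1.05).

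Genes that lie beside the 7 on the chromosome were also examined, 3 protein-coding genes to each side in the order of RefSeq's GRCm38.p6 annotation, a choice made after the values were known. Of 42 neighbours, 24 were tested, 4 rose and 2 fell, beside 3.55% of all 16956 items that rose and 5.07% that fell. Of the 4 that rose, 2 were relatives described above: Pnliprp1 is the gene next to Pnliprp2, and Nxpe2 the gene next to Nxpe4. The others were Cadm1, on the far side of Nxpe4 and encoding a cell adhesion molecule (0.58, adjusted p = 0.0331), and Parp8, next to Emb (0.66 ± 0.12, SE; adjusted p = 0.00696). The Cadm1 call ended without control 2 or 4 or PB-NICD 1 or 2 (adjusted p from 0.0927 to 0.119). Pdia6, a disulfide isomerase of the endoplasmic reticulum next to Kcnf1, fell by 1.06 (adjusted p = 0.0016; 0.0929 with the mean of all its probes), and Srpx, 3 genes before Tspan7, fell by 1.08 (adjusted p = 0.00372). The Pdia6 call also ended with median centring (-0.36, adjusted p = 0.213) and in the red channel alone (-0.68, 0.124). The Parp8 call ended within slide 1 (0.69, 0.0884), within slide 2 (0.64, 0.0549) and with normexp fitted on all spots (0.45, 0.253), the Srpx call within slide 1 (-0.88, 0.0824), and the Cadm1 call within slide 1 (0.0722) and within slide 2 (0.141). No tested neighbour of Wfdc3 or Aqp5 was called.

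**Figure D5:**
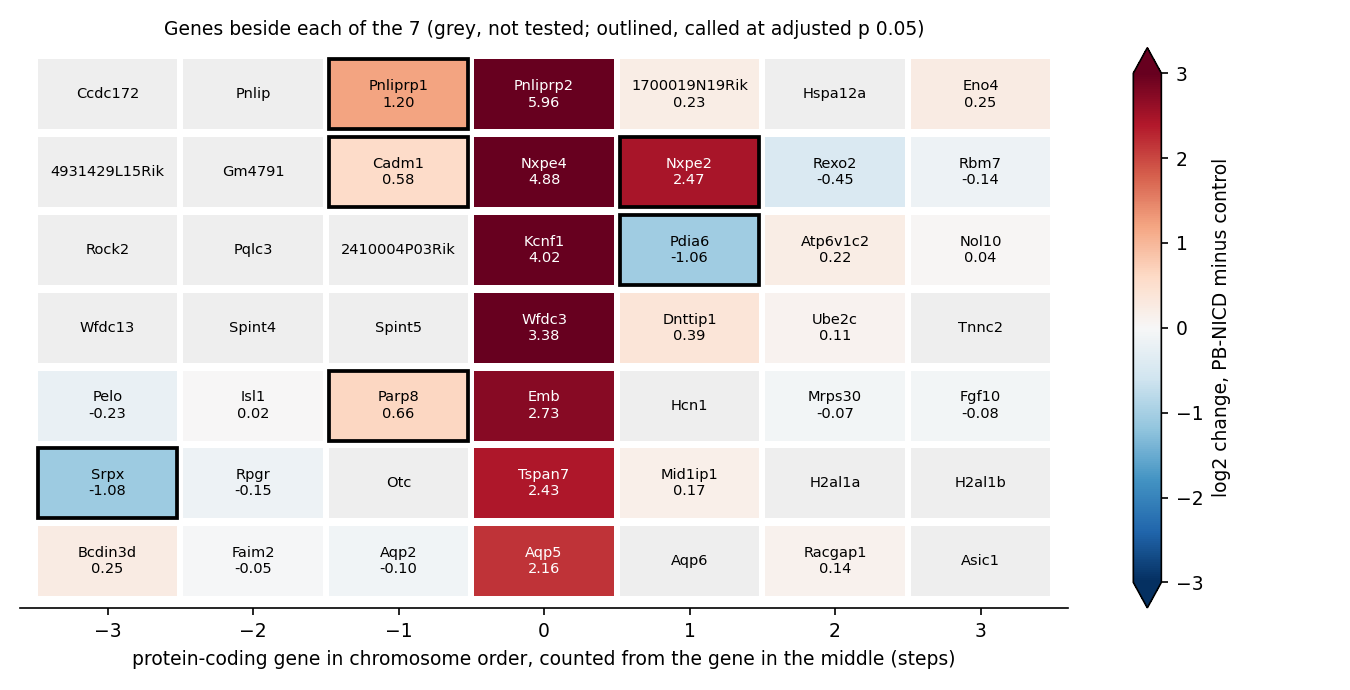
Log2 change, PB-NICD minus control (colour and number), of each of the 7 genes (middle column) and of 3 protein-coding neighbours on either side in chromosome order, grey where not tested and outlined where called. Calls sit next to Pnliprp2 (Pnliprp1), Nxpe4 (Cadm1, Nxpe2), Kcnf1 (Pdia6) and Emb (Parp8), and 3 genes before Tspan7 (Srpx).

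The genes whose profile was most like each of the 7 were found as the named genes with the smallest root mean square difference of log2 ratio over the 7 arrays, after each gene's control mean was removed, among 7554 measured on all arrays. Much of this likeness comes from a rise of similar size, so it is a description. The genes nearest to Nxpe4 were Kcnf1, at a difference of 0.60, and Pnliprp2, at 0.71. Mgst1, a membrane-bound glutathione transferase, was nearest to Kcnf1 (0.41) and among the nearest 3 of Pnliprp2, Nxpe4 and Wfdc3. Mgst1 read 0.61 to 0.80 in the controls and 3.85, 4.45 and 4.12 in the PB-NICD samples, a rise of 3.43 ± 0.14 (SE; adjusted p = 8.14e-07). Nearest to Wfdc3 was Mme, the membrane peptidase neprilysin (0.44), which was also lowest in control 2, at 2.05 against 2.54 to 3.35 in the other controls. For Emb the nearest 3 were Nrarp (0.25) and Heyl (0.25), both Notch targets, and Edn1, which encodes endothelin-1 (0.25). These rest on the brighter Emb probe, and the other probe, which orders the PB-NICD samples differently, was not compared. For Tspan7 the nearest 3 were Hilpda, a lipid droplet protein (0.22), Eppin (0.22) and Pgap4 (0.23). For Aqp5 they were Zfp185 (0.20), Pgap4 (0.25) and Id4, an inhibitor of DNA binding (0.27). Of these, Nrarp was well above background on 1 control array, and Edn1, Hilpda and Eppin on none.

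The promoters of all 7 genes were found in the RefSeq table. Windows of 300 bases, 250 before and 50 after the start, were searched on both strands for TGGGAA and TGTTCT, hexamers that cannot hold one another. The RBPJ core was in 1 of the 7, Wfdc3 as printed above, against 25.6% of 32851 promoters, and 2 or more copies stood in 3.79% of them. The androgen receptor half-site was in 3, Nxpe4, Wfdc3 (positions 17 and 39) and Emb (position -119), against 19.0% of all promoters. Of all promoters, 2.54% held 2 or more copies of it, as Nxpe4 and Wfdc3 did. GC content ran from 42.3% in Nxpe4 to 79.7% in Aqp5, around a median over all promoters of 52.7%. CpG pairs numbered 46 in Aqp5 and 27 in Tspan7 but 14 in Emb, 8 in Pnliprp2, 3 in Kcnf1, 3 in Wfdc3 and 1 in Nxpe4, against a median of 7. A match is a string of letters and not a bound site, and its absence concerns this window alone.

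Marker genes of other cell types that a prostate sample could hold, or in which some of the 7 genes are known, were read beside them, as summed red minus background over each list without the 7 genes. For the pancreas, Pnlip, Cpb1 and Cela2a were above background on no array, 10 of 17 markers were tested, Pnliprp1 rose and 3 (Cpa1, Ctrb1 and Bhlha15) fell, and the sum was 6124.5 to 18440 in the controls and 13406.5 to 26099 in the PB-NICD samples. Leaving out any 1 of the 7 samples ended the Bhlha15 call, and leaving out PB-NICD 2 or PB-NICD 3 ended that of Cpa1. Another probe of Bhlha15, not used for the call, read log2 ratios of 2.84 to 4.12 in the controls and 1.21 to 2.55 in the PB-NICD samples. For salivary acinar cells Smgc, Dcpp1, Prol1 and Car6 were above background on no array, none of 4 tested markers was called by limma (1 had an unadjusted p below 0.05), and the sums were 4336 to 8627.5 and 9112.5 to 12489.5. For the lung, 4 of 8 markers were well above background on some control array, 6 on some PB-NICD array and 2 (Sftpc and Sftpd) on none, 0 of 3 tested markers were called (0 at an unadjusted p below 0.05), and the sums were 321 to 786.5 and 530.5 to 1120.5. For the urothelium, the lining of the bladder, Upk3a rose (5.11, limma adjusted p = 0.000524) and 3 other tested markers were not called. Upk3a had values on controls 2 and 4 (-0.06 and -0.19) and PB-NICD 1 and 2 (5.73 and 4.23) alone. The urothelial sums were 2608 to 5553.5 and 10248 to 11294.5. For fibroblasts 0 of 7 tested markers were called (0 at an unadjusted p below 0.05), and the sums were 10052 to 18002 and 22016 to 27476.5. The salivary, urothelial and fibroblast sums, which are not normalized, thus did not overlap between the groups and were higher in PB-NICD. On normalized log2 ratios the median change of the tested markers was 0.10, -0.08 and -0.12 in these 3 lists. The salivary marker with an unadjusted limma p below 0.05 was Amy1, at -0.47. Another Amy1 probe read 0.10 to 1.12 in the controls and 1.12 to 1.73 in the PB-NICD samples. The intestinal epithelial sum did not overlap the other way, at 5989.5 to 11976.5 in the controls and 1315.5 to 2702 in the PB-NICD samples. Of 4 tested markers of that list 1 fell and 3 were not called, and Vil1, Cdx1, Cdx2 and Cdh17 were above background on no array. The 1 that fell was Agr2, measured on 2 control arrays at 3.98 and 3.82, and it fell by 3.20 (limma adjusted p = 0.000101). These sums come from arrays whose red channel was brighter in PB-NICD in general, and their part in the rises of the 7 genes was not tested. Of prostate secretory markers 3 of 9 tested fell (Sbp, Sbpl and Fgl1), and of basal cell markers 3 of 8 (Krt5, Krt15 and Itga6). Gsto1 fell among 8 proximal luminal markers (-0.80, limma adjusted p = 0.00619) and Actg2 among 8 smooth muscle markers (-0.44, 0.0471). Emcn fell among 5 endothelial markers (-0.81, 0.0364). The Actg2 and Emcn calls held in 1 and 3 of the 7 fits that leave out a sample, and the Gsto1 call in all 7. Sbp read 11.50, 10.38, 10.12 and 9.50 in the controls and 2.38, 4.75 and 9.44 in the PB-NICD samples, so PB-NICD 3 lay next to the controls. Sbp fell by 4.85 (adjusted p = 0.0419), a change called in 1 of the 7 fits that leave out a sample, that without PB-NICD 3, with values from -6.81 to -3.28. The Sbpl call ended without control 1, PB-NICD 1 or PB-NICD 2, and that of Itga6 (-0.55, adjusted p = 0.021) without PB-NICD 2 or PB-NICD 3 and with median centring, where its sign turned. Fgl1, Krt5 and Krt15 were called in each such fit that measured them, which for Fgl1 was 5 of the 7. Fgl1 had control values on controls 1 and 2 alone, both of slide 1.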

How the data were processed

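RNA from 7 prostate samples (4 control, 3 PB-NICD) was read on 2-colour Agilent mouse arrays, 1 per sample, with no dye swap. Per the file headers, spot intensity was read with Agilent Feature Extraction; the deposited intensity columns hold median spot and background signals, not normalized, and processed signals, background-subtracted and dye-normalized. The LogRatio column was used to check direction and holds a log10 ratio, per the file headers. Flags of 0 or 1 mark outlier, saturated and well-above-background spots. The authors' deposited value table is on a log2 scale, centred near 0 (column medians -0.01 to 0.00), with normalization not given in the sources used here, and each column correlated at 0.989 to 0.995 with its own array.

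Background was corrected with normexp (offset 50) on median signals and arrays were normalized by loess in limma 3.58.1 (R 4.3.3). The plan had normexp fitted on all spots. On PB-NICD 1, 5 spots with red more than 40 below their background, such as a signal of 131 over 47872, moved that fit's red mean from -7.39 to -220.12 and the median corrected red from 92.4 to 349.5. The parameters were therefore fitted without spots whose background was marked as an outlier, and applied to all spots. This was decided after the data were seen, and dropping such spots altogether was tried too; both alternatives are given in the closing section. Control spots had weight 0, outlier spots were set to missing and no scaling between arrays was applied. Items needed red well above background on 3 arrays and 2 values per group, with the brightest probe per gene. Of 41174 probes, 24375 received a symbol by accession through RefSeq's GRCm38.p6 table. The files' design uses an older build, so gene coordinates are given for promoter windows only.

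The 2 groups were compared with lmFit and eBayes (two-sided), and p-values were adjusted by Benjamini-Hochberg over 16956 items (threshold 0.05). The fit was tested on simulated data. The 7 genes and all lists were chosen with earlier results of these data known, so the 7 have no test. Named relatives are those called in each list, and a few partners chosen by function. Same-numbered samples correlated at 0.31, -0.24 and 0.08, so numbers were not used as pairs. The offset draws dim spots towards a ratio of 0, and the number of arrays limits precision.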

Additional observations from a re-analysis of the deposited data

Results flagged for a closer look

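Both values here stood apart among the 4 controls, tested by the gap of the end sample to its nearest neighbour as a share of the range. Chance flags about 1 in 20 such groups. Genes and marker sums were both searched, and the number of groups searched is not given. The flags therefore cannot be weighed against that rate, and by this rule alone either could be a chance one. Nxpe2 read 0.68 in control 1, a gap of 0.945 of the range to the other controls, which lay at 0.17 to 0.20, and no control array was above background for it. The summed red signal of 9 seminal vesicle markers was 27498 in control 2, a gap of 0.984 of the range. Svs4 was at a log2 ratio of 9.39 there against -0.28 to 2.36 in the other controls. PB-NICD 1, outside this rule, also had such signal, with a sum of 4469.5 and Svs4 at 5.75. Control 2 was also the lowest control for Wfdc3 and Mme.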

How the results depend on the processing

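All 7 genes were higher in PB-NICD under every other way of processing that gave them a value: 24 each for Wfdc3, Emb, Tspan7 and Aqp5, 23 for Pnliprp2, 22 for Nxpe4 and 19 for Kcnf1. The values ran from 4.75 to 6.11 for Pnliprp2, 3.41 to 5.23 for Nxpe4, 2.29 to 5.20 for Kcnf1, 2.65 to 3.98 for Wfdc3, 2.40 to 2.98 for Emb, 2.17 to 2.72 for Tspan7 and 1.78 to 2.59 for Aqp5. The number of items called was 1462 (41.18% higher). It was 4572 with median centring in place of loess (93.74% higher, with the median of all items at 0.27), 884 in the red channel alone (52.94% higher), 458 with normexp fitted on all spots (15.07% higher), 742 within slide 1, 812 within slide 2 and 3211 from the authors' deposited value table. Leaving out 1 sample gave 773 to 1486. The count of relatives called, 15, was 24 with median centring, 5 with normexp on all spots, 24 with slide added as a fixed term, 8 within slide 1 alone and 28 from the authors' deposited value table, and leaving out 1 sample gave 8 to 17. The replicate block, with numbers that do not pair the samples, gave 1133 items and 11 relatives. With median centring the sign turned for Kcns3 (-1e-04), Bhlha15 (0.33), Gsto1 (0.051), Itga6 (0.023) and Actg2 (0.43). With normexp on all spots Nxpe2 (1.84, adjusted p = 0.11) and Eppin (1.61, adjusted p = 0.084) were no longer called. Leaving out spots with an outlying background gave 1378 items and 15 relatives. A lone sample within a slide is assumed to vary like the others. Beyond the settings' own construction (fewer arrays or spots), the cause of these differences was not tested. The dim red channel limits Kcnf1, Nxpe2, Eppin, Kcns3 and Aqp11 in the controls to bounds, and leaves Nxpe4 measured there on 2 arrays and Pnliprp2 on 3.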
